A study of Mus musculus with 18 samples.

Results

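The Krüppel-like factors (KLFs) are zinc finger transcription factors that bind GC-rich and CACCC-containing DNA. Transcript levels of 10 of them (Klf2, Klf3, Klf4, Klf6, Klf7, Klf9, Klf10, Klf11, Klf13, and Klf15) were examined in the left ventricle (LV) and right ventricle (RV) of mouse hearts after cold storage. The members were chosen by name, with earlier results of these data known, so that their counts against all genes are a description. The estimated counts of all transcripts of each gene were summed in every library, and the members made up 10 of the 34989 genes quantified. RNA was sequenced in 18 libraries, 3 for each ventricle after 0, 4, or 8 h of storage. By the study's methods, mRNA was selected from total RNA for these libraries. The mice were C57B/L6 animals 12 weeks old by the labels, which name neither a transgene nor a drug treatment. The study's text gives a younger age and both sexes, and states that the mice received heparin before isoflurane anesthesia. Every heart, including those of the 0 h groups, was flushed with histidine-tryptophan-ketoglutarate (HTK) solution and perfused with Krebs buffer for 1 h before the ventricles were frozen; the 4 h and 8 h hearts were kept in ice-cold HTK in between. The 0 h groups are therefore perfused hearts without storage, not untouched tissue. The labels do not give the sex of the animals or say that the replicates of a group are separate animals, so that p-values measure the spread between these libraries.

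KLFs share a DNA-binding domain and differ in the protein partners that make them activators or repressors. In endothelium, Klf2 and Klf4 are induced by laminar flow through the MEK5-ERK5-MEF2 kinase and transcription factor axis and favour an anticoagulant, anti-inflammatory state. In heart muscle, Klf15 is known for restraining hypertrophic growth and for maintaining lipid and amino acid metabolism, and Klf9 and Klf15 are targets of the glucocorticoid receptor.

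The libraries held 22552581 to 46236771 estimated counts (median 29981406). The fewest estimated counts for any member in any library were 388, for Klf11, and the most were 18826, for Klf6, so that all 10 members passed the filter on low counts in every comparison. The 6 cardiomyocyte markers, of which Myh6 was the most abundant, summed to between 23500 and 62100 CPM (counts relative to the library's total, which was scaled by the TMM method) in the 18 libraries. The libraries did not lie evenly. On the first principal component of all genes, which held 42.2% of the variance, replicate 3 at 8 h lay at 77.27 in LV and 105.12 in RV, beyond all other libraries, the next being RV replicate 3 at 4 h at 45.98. Results called at 8 h are therefore given also without replicate 3 of that ventricle at 8 h.

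Levels can be compared between genes only per length, and for this the deposited TPM values, which are scaled by transcript length, were added over the transcripts of a gene. In LV at 0 h, Klf2 had the highest level of the 10 members at 93.4 ± 7.28 TPM (mean ± SD, n = 3). Klf6 followed at 49.8 ± 4.66 TPM and Klf4 at 48.8 ± 2.92 TPM, which did not differ beyond their spread. Klf9 had a level of 38.1 ± 6.75 TPM and Klf10 one of 25.5 ± 9.53 TPM, close to Klf15 at 23.5 ± 1.97 TPM. Lower levels were those of Klf3 (13.7 ± 1.71 TPM), Klf13 (10.6 ± 3.02 TPM), and Klf7 (7.87 ± 1.29 TPM), with overlapping spreads between neighbours. Klf11 was lowest of the 10 members at 4.75 ± 0.198 TPM. In RV at 8 h the levels were 173.7 ± 50.8 TPM for Klf2, 124.5 ± 44.9 for Klf4, and 113.9 ± 45.1 for Klf6, again within their spread, while Klf15 had 12.9 ± 5.31 TPM. Nearly all counts of most members came from a single transcript. The exceptions were Klf10, with 80.1% of its counts in its leading transcript and 11.4% in the next, and Klf15, with 75.6% in its leading transcript. The share of the leading Klf15 transcript went from 79.7% to 65.0% between 0 h and 8 h in LV and from 79.0% to 65.2% in RV, a difference that was not tested.

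**Figure D1:**
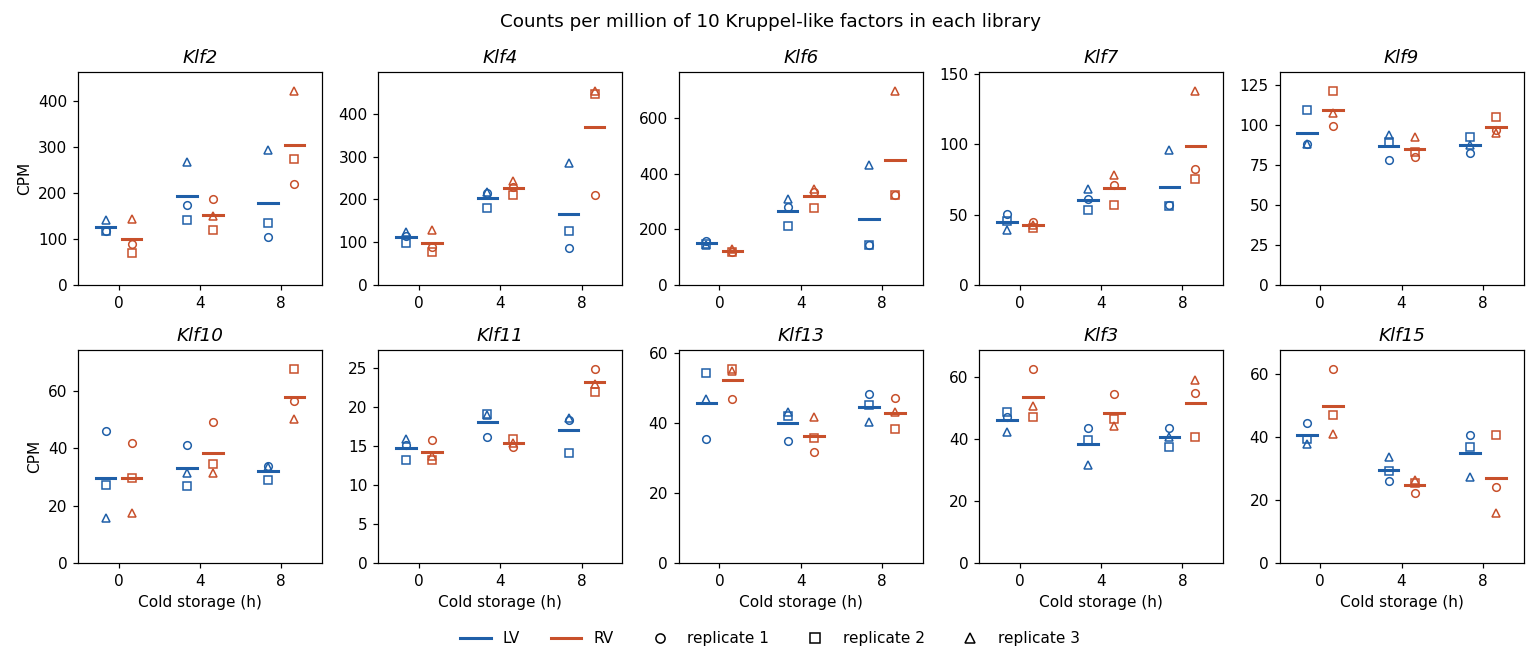
Level of each member in CPM (vertical axis, from 0) in each library, by hours of cold storage; blue symbols are LV and red symbols RV, the symbol shape is the replicate number, and bars are means of 3 libraries. In RV at 8 h the 3 Klf6 libraries lie between 323 and 697 CPM, above the 0 h libraries at 118 to 129 CPM, whereas 2 of the 3 LV libraries at 8 h lie at 142 and 143 CPM.

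Genes were compared with edgeR's quasi-likelihood test, and a gene was called when its Benjamini-Hochberg adjusted p over all genes tested was under 0.1 and its fold change over 1.5. In RV after 4 h, 2 of the 10 members were called higher, where 6.17% of the 14622 genes tested were, and 1 was called lower, against 3.91%. After 8 h, 6 members were called higher in RV, against 13.0% of genes, and 1 lower, against 5.26%. In LV no member was called after 4 h (2.4% of 14564 genes called higher and 0.398% lower) or after 8 h (5.46% and 1.26%). Without adjustment, 2 members in LV had a p under 0.05 at 4 h and 1 at 8 h. Of the 14564 genes 2272 and 3396 did (in RV 3141 and 4500 of 14622). In LV, DESeq2 called 0 members at 4 h (693 of 22769 genes higher and 219 lower). At 8 h it called 1, Klf7 (1161 and 335 genes). Among the 10 members the median log2 fold change after 4 h was 0.23 in LV and 0.25 in RV, and after 8 h 0.16 in LV and 0.84 in RV, where that of all genes tested was near 0 (-0.07 in RV at 8 h). Without replicate 3 the members' median at 8 h was -0.07 in LV, of the other sign, and 0.81 in RV. The comparisons of 4 h and 8 h within a ventricle share their 0 h libraries. In bulk tissue, a change in the number of cells of a type and a change in RNA per cell cannot be told apart.

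Counting members whose libraries did not overlap with those at 0 h, 4 lay above and 1 below in LV at 4 h (12.9% and 11.3% of genes), and 1 lay above and 0 below in LV at 8 h (15.5% and 13.1%). In RV the counts were 3 above and 3 below at 4 h (15.1% and 16.7%), and 6 above and 1 below at 8 h (18.5% and 17.0%). No member was called between 8 h and 4 h by edgeR in either ventricle, where 0.0% of genes were called. For 8 h against 4 h an unadjusted p under 0.05 was found for 0 members in LV (1180 of all genes tested). In RV it was found for 2 members (961 of all). DESeq2 called 0 members in LV (8 of 22769 genes higher and 63 lower). In RV it called 1, Klf11 (29 and 14 of 22800 genes).

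Klf2 and Klf4, the flow-responsive factors of endothelium, come first, followed by Klf6 and Klf7. Klf2 (chr8:72319033-72321656 of GRCm38, plus strand) in RV was at 88.2, 70.6, and 144 CPM at 0 h, at 187.5, 120.2, and 149.5 CPM after 4 h, and at 220.5, 274, and 422 CPM after 8 h. All 3 libraries at 8 h lay above those at 0 h, whereas the 4 h libraries overlapped with 0 h. The log2 fold change at 8 h was 1.62 with a standard error of 0.34 (3.08-fold; edgeR adjusted p = 0.0163), and 1.30 without replicate 3 (edgeR adjusted p = 0.0336). At 4 h it was 0.61 ± 0.34 (edgeR adjusted p = 0.354).

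Klf4 (chr4:55527143-55532466, minus strand), also known as a factor of pluripotent cells, was at 88.0, 77.0, and 129 CPM in RV at 0 h, at 229, 209.6, and 243 CPM at 4 h, and at 210.3, 445.5, and 453 CPM at 8 h. Every stored RV library lay above every 0 h library, and those at 4 h were close to each other. Against 0 h, Klf4 had a log2 fold change of 1.23 ± 0.32 (standard error) at 4 h (2.34-fold; edgeR adjusted p = 0.0553) and 1.94 ± 0.33 at 8 h (3.83-fold; edgeR adjusted p = 0.007). Without replicate 3 the 8 h value was 1.75 (edgeR adjusted p = 0.0132). The call at 4 h was lost in 6 of the 9 fits that each left out 1 RV library, with the log2 fold change between 1.08 and 1.48 and the edgeR adjusted p between 0.0271 and 0.211; leaving out any 0 h or any 4 h library removed it.

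Klf6 (chr13:5861482-5870394, plus strand), an early-response gene of injured tissue, was at 118, 119, and 129 CPM in RV at 0 h, at 336, 277, and 347 CPM at 4 h, and at 324, 323, and 697 CPM at 8 h. The 0 h libraries were within a narrow range, and all 6 stored libraries lay well above them. For Klf6 the log2 fold change from 0 h came to 1.41 ± 0.31 (standard error) at 4 h (2.65-fold; edgeR adjusted p = 0.0349) and 1.91 ± 0.32 at 8 h (3.75-fold; edgeR adjusted p = 0.00694). Without replicate 3 the change at 8 h was 1.41 (edgeR adjusted p = 0.00185). At 4 h the call was lost without RV replicate 2 or replicate 3 at 0 h, where the log2 fold change was 1.39 and 1.45 and the larger edgeR adjusted p 0.144. At 8 h the calls of Klf2, Klf4, Klf6, Klf7, and Klf11 held in all 9 fits that left out 1 RV library and in all 11 other settings tried.

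Klf7, best known from neurons, where it supports axon growth, was at 44.7, 40.3, and 42.6 CPM in RV at 0 h, at 71.2, 56.8, and 78.0 CPM at 4 h, and at 82.7, 75.6, and 138 CPM at 8 h. No stored RV library overlapped with those at 0 h. The log2 fold change of Klf7 was 1.24 ± 0.25 at 8 h (2.36-fold; edgeR adjusted p = 0.0143), and 0.90 without replicate 3 (edgeR adjusted p = 0.0101). At 4 h the change of 0.71 ± 0.25 missed the threshold (edgeR adjusted p = 0.135), and it was called in 5 of 11 other settings, among them the replicate number as a block in the model (0.69; edgeR adjusted p = 0.0641) and DESeq2. It was also called without RV replicate 3 at 8 h (0.70; edgeR adjusted p = 0.0183).

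In LV the same genes had the following levels. Klf2 was at 117, 117, and 142.5 CPM at 0 h, at 175, 141, and 268 CPM at 4 h, and at 104, 136, and 295 CPM at 8 h. Klf4 was at 113, 97.7, and 123 CPM at 0 h, at 215, 180.3, and 217 CPM at 4 h, and at 87.0, 127, and 284 CPM at 8 h. Klf6 was at 159, 148, and 143 CPM at 0 h, at 282, 211, and 307 CPM at 4 h, and at 142, 143, and 432 CPM at 8 h. Of these 3 genes, replicate 3 was the high library at 8 h, and at least 1 of the other LV libraries lay below every 0 h library. Klf4 and Klf6 at 4 h lay above all their 0 h libraries. Log2 fold changes at 8 h were 0.51 ± 0.37 for Klf2, 0.58 ± 0.36 for Klf4, and 0.68 ± 0.40 for Klf6 (edgeR adjusted p = 0.435, 0.358, and 0.328). Without replicate 3 they were -0.08, -0.07, and -0.08, none called. At 4 h the LV values were 0.63 ± 0.37 for Klf2, 0.88 ± 0.36 for Klf4, and 0.83 ± 0.40 for Klf6 (edgeR adjusted p = 0.469, 0.292, and 0.35). Klf4 and Klf6 at 4 h were called when LV replicate 3 at 8 h was left out, with edgeR adjusted p = 0.0286 and 0.0257.

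Klf7 in LV was at 50.2, 45.6, and 38.8 CPM at 0 h, at 61.1, 53.0, and 68.1 CPM at 4 h, and at 56.9, 56.5, and 95.7 CPM at 8 h. It was the only member whose libraries at both storage times lay above all LV libraries at 0 h. Its log2 fold change at 8 h, 0.64 ± 0.22, was not called (edgeR adjusted p = 0.129), and it was called by DESeq2, with Y-linked expression as a covariate, and without LV replicate 2 at 8 h (0.81; edgeR adjusted p = 0.0739). Without LV replicate 3 at 8 h the value was 0.33 (edgeR adjusted p = 0.316).

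Klf9, Klf10, Klf11, and Klf13 belong to the members that recruit the Sin3A co-repressor. Klf10 and Klf11 were first described as genes induced early by transforming growth factor beta (TGF-beta). Klf10 in RV was at 42.0, 29.7, and 17.5 CPM at 0 h, at 49.3, 34.4, and 31.2 CPM at 4 h, and at 56.4, 67.6, and 50.2 CPM at 8 h. The 8 h libraries lay above all others of RV, and the 0 h libraries were spread widely. Its log2 fold change at 8 h was 0.98 ± 0.30 (1.97-fold; edgeR adjusted p = 0.0642), and 1.06 without replicate 3 (edgeR adjusted p = 0.0919). The call was lost without RV replicate 2 or 3 at 0 h or RV replicate 1 at 8 h, with values of 0.97, 0.70, and 1.01 and edgeR adjusted p = 0.182, 0.154, and 0.113. In LV, Klf10 was at 46.0, 27.1, and 15.7 CPM at 0 h and between 26.8 and 41.2 CPM in the stored libraries.

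Klf11 in RV was at 15.8, 13.2, and 13.8 CPM at 0 h, at 14.8, 16.0, and 15.4 CPM at 4 h, and at 24.9, 21.9, and 23.0 CPM at 8 h. The 8 h libraries were alike and lay above the rest. The change at 8 h was 0.72 ± 0.13 on the log2 scale (1.64-fold; edgeR adjusted p = 0.00917), and without replicate 3 it was also 0.72 (edgeR adjusted p = 0.0133). In LV, levels ran from 13.2 to 19.2 CPM, with log2 fold changes of 0.30 ± 0.14 at 4 h and 0.21 ± 0.14 at 8 h, neither called.

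Klf9, a factor induced by glucocorticoid and thyroid hormones, ran from 77.9 to 121 CPM over the 18 libraries and was not called in any comparison. Its RV libraries at 4 h (80.0, 83.0, and 92.4 CPM) lay below those at 0 h (99.4, 121, and 107 CPM), with a log2 fold change of -0.34 ± 0.15 (edgeR adjusted p = 0.215). Klf13, which cooperates with Gata4 in heart development, was at 46.7, 55.3, and 54.8 CPM in RV at 0 h and at 31.6, 35.6, and 41.6 CPM at 4 h. Its log2 fold change of -0.51 ± 0.16 had an edgeR adjusted p of 0.0891 but a fold change under 1.5. It was called with transcript length offsets, without a threshold on the fold change, and without RV replicate 3 at 4 h (-0.63; edgeR adjusted p = 0.0991). Klf3, a repressor that acts through CtBP, ran from 31.7 to 62.7 CPM and was not called by edgeR in any comparison.

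Klf15 (chr6:90462576-90475238, plus strand) governs metabolic and ion channel genes of cardiomyocytes. In RV it was at 61.4, 46.8, and 40.8 CPM at 0 h, at 22.3, 25.4, and 26.1 CPM at 4 h, and at 24.1, 40.7, and 15.8 CPM at 8 h. The libraries at 4 h lay below every 0 h library, and at 8 h replicate 2 lay just under the lowest 0 h library. The log2 fold change of Klf15 was -0.997 at 4 h with a standard error of 0.30 (edgeR adjusted p = 0.0856). After 8 h, Klf15 had a value of -0.88 with a standard error of 0.30 (edgeR adjusted p = 0.0836). Both calls depended on single libraries. At 4 h the call was lost without any 1 of the 0 h or 4 h libraries or replicate 1 at 8 h (-0.81 to -1.12; edgeR adjusted p up to 0.245). At 8 h it was lost without any 1 of the 0 h or 4 h libraries or replicate 1 or 3 at 8 h, with edgeR adjusted p up to 0.215 and -0.61 without replicate 3 (edgeR adjusted p = 0.184). In LV, Klf15 was at 44.2, 39.2, and 37.8 CPM at 0 h, at 26.0, 29.1, and 33.6 CPM at 4 h, and at 40.5, 36.8, and 27.3 CPM at 8 h. The 4 h libraries lay below the 0 h range and those at 8 h overlapped with it, and neither change was called (-0.45 ± 0.16 and -0.21 ± 0.16; edgeR adjusted p = 0.225 and 0.451).

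**Figure D2:**
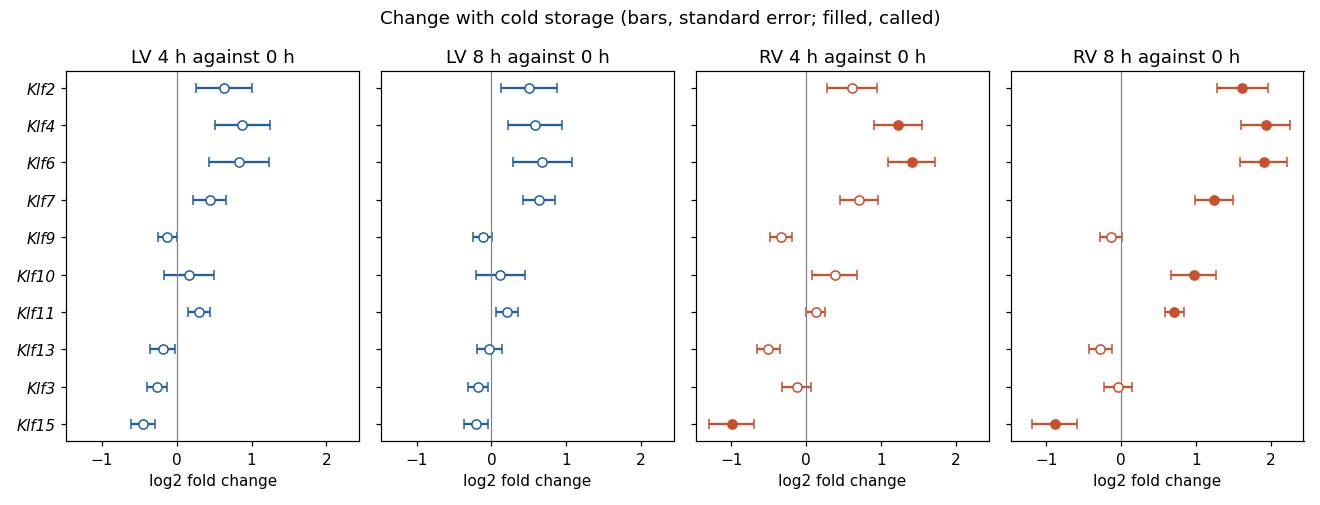
Log2 fold change against 0 h of each member in each ventricle, with bars for the standard error; filled circles were called (edgeR adjusted p under 0.1 and fold change over 1.5). In RV at 8 h, 6 members lie to the right of 0 and are filled, and Klf15 lies to the left at -0.88.

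Between the ventricles, no member was called at 0, 4, or 8 h without pairing (0.159%, 0.0133%, and 0.0331% of 15093 genes called), nor for the difference between the ventricles in the change from 0 h to 4 h or to 8 h (0.0% and 0.0%). Without adjustment, 0, 0, and 6 members had a p under 0.05 for LV against RV at 0, 4, and 8 h. Of the 15093 genes 484, 446, and 1669 did. For the differences in change 0 and 3 members did (158 and 628 genes). DESeq2 called 0, 0, and 1 member for LV against RV. Of 24072 genes it called 22, 10, and 36 higher and 39, 14, and 140 lower. For the differences in change it called 0 and 0 members (0 and 0 genes higher, and 0 and 2 lower). Same-numbered LV and RV libraries of one storage time deviated together, with correlations of 0.284 to 0.668 in the 9 pairs. With each of these pairs as a block, 0 members were called at 0 h (1.85% of genes), 0 at 4 h (1.93%), and 4 at 8 h (8.78%). For the difference in change, 0 were called to 4 h (0.305%) and 5 to 8 h (5.71%). The block rests on the numbers in the labels, which do not say that a number names a heart.

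Lower in LV than in RV at 8 h were Klf2, Klf4, Klf6, and Klf10, and RV was higher in 3 of 3 pairs for each. RV exceeded LV by 1.43 to 2.12-fold for Klf2, 1.59 to 3.52-fold for Klf4, 1.61 to 2.28-fold for Klf6, and 1.5 to 2.35-fold for Klf10. With the block the log2 differences of LV from RV were -0.87 ± 0.18 for Klf2, -1.25 ± 0.17 for Klf4, -1.02 ± 0.11 for Klf6, and -0.85 ± 0.12 for Klf10 (edgeR adjusted p = 0.00611, 0.000681, 0.000291, and 0.000711). Each held in all 9 fits that left out the same-numbered LV and RV libraries of 1 storage time. Only the fits without 8 h libraries change the pairs compared here. In those the values ran from -1.05 to -0.76 for Klf2 and from -1.54 to -0.96 for Klf4. They ran from -1.18 to -0.93 for Klf6 and from -0.98 to -0.65 for Klf10. The edgeR adjusted p went up to 0.0566, 0.0103, 0.00596, and 0.00815. RV was also higher in 3 of 3 pairs for Klf7 (1.34 to 1.45-fold), Klf11 (1.24 to 1.55-fold), Klf3 (1.09 to 1.46-fold), and Klf9 (1.09 to 1.17-fold). With the block their log2 differences of -0.50, -0.46, -0.33, and -0.18 had edgeR adjusted p = 0.00106, 0.00313, 0.033, and 0.0678, and the fold changes were under 1.5. Klf15, higher in RV in 1 of 3 pairs, had 0.45 with the block (edgeR adjusted p = 0.0508), also under that fold. The Klf15 value depended on single pairs. Without both replicate 2 libraries at 8 h it was 0.78 and called (edgeR adjusted p = 0.00193), and without those of replicate 1 or 3 it was 0.30. Klf13 had 0.06 with the block (edgeR adjusted p = 0.631). Without the block, leaving out LV replicate 3 at 8 h alone gave calls for Klf2 (-1.35; edgeR adjusted p = 0.0876), Klf4 (-1.79; 0.0401), and Klf6 (-1.66; 0.0401). At 0 h, the ratio of RV to LV ran from 0.601 to 1.01 for Klf2 and from 0.742 to 0.903 for Klf6, without a call.

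Of 16 other KLF and Sp genes, 8 were tested, and edgeR called 1, Klf5, in RV at both times and 0 in LV. Of all genes tested in RV, 6.17% were called higher at 4 h and 13.0% at 8 h. Klf5 in RV was at 0.935, 0.745, and 0.522 CPM at 0 h, 4.11, 4.47, and 4.08 CPM at 4 h, and 2.61, 2.04, and 2.92 CPM at 8 h. Stored RV libraries lay above all at 0 h, at low levels. The log2 fold changes were 2.53 ± 0.27 and 1.79 ± 0.27 (edgeR adjusted p = 0.00354 and 0.00475), and without replicate 3 the 8 h value was 1.66 (edgeR adjusted p = 0.0105). In LV they were 1.66 ± 0.56 and 0.66 ± 0.58 (-0.28 without replicate 3 at 8 h), and without adjustment 1 gene of the list had a p under 0.05 at 4 h and 0 at 8 h; DESeq2, which tested all 16, called 1 and 0.

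Upstream of Klf2 and Klf4, the 7 genes of the MEK5-ERK5-MEF2 axis were tested and edgeR called 0 at either time in either ventricle. DESeq2 called 0 as well, and an unadjusted p under 0.05 was found for 1 and 2 genes in LV and for 0 and 2 in RV at 4 h and 8 h. The median log2 fold change in RV at 8 h was -0.25 against -0.07 for all genes. Of 6 co-repressor genes, Sin3a was called higher in RV at 4 h (0.61 ± 0.18; edgeR adjusted p = 0.0837), and Sin3a and Hdac1 at 8 h (0.65 ± 0.18 and 0.70 ± 0.24; edgeR adjusted p = 0.0467 and 0.0837). In RV 6.17% of all genes tested were called higher at 4 h and 13.0% at 8 h. Without replicate 3 the 8 h value of Sin3a was 0.67 (edgeR adjusted p = 0.082), and that of Hdac1 was 0.37 and not called (edgeR adjusted p = 0.151). Of the 9 fits that each left out 1 RV library, the call held in 3 for Sin3a at 4 h, in 7 for Sin3a at 8 h (lost without replicate 3 at 0 h or replicate 1 at 8 h), and in 2 for Hdac1 (without replicate 1 or 2 at 8 h), with edgeR adjusted p up to 0.298, 0.157, and 0.224. In LV edgeR and DESeq2 called 0 of the 6, and 0 had an unadjusted p under 0.05.

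Genes that Klf2 or Klf4 induces in endothelium numbered 9, of which 8 were tested in LV. In RV at 8 h, 5 were called higher and 0 lower, where 13.0% and 5.26% of all genes tested were. The median log2 fold change of the list was 1.02, against -0.07 for all genes. Plat, tissue plasminogen activator, stood at 21.1, 14.9, and 18.9 CPM in RV at 0 h and at 96.0, 56.5, and 104 CPM at 8 h (log2 fold change 2.24 ± 0.27; edgeR adjusted p = 0.00176). Thbd, the anticoagulant receptor thrombomodulin, was at 58.4, 57.8, and 78.3 CPM at 0 h and at 223, 111, and 121 CPM at 8 h (1.23 ± 0.42; edgeR adjusted p = 0.087). S1pr1 (1.02 ± 0.30), Gja4 (1.30 ± 0.45), and Nppc (3.42 ± 0.98, at no more than 0.869 CPM in any library) were the others. Without replicate 3, 2 of the 9 were called, Plat (2.06; edgeR adjusted p = 0.00317) and Nppc (3.79; edgeR adjusted p = 0.0527), and the median was 0.65. Of 14828 genes tested in that fit, 1329 were called higher. S1pr1 was then at 0.61 (edgeR adjusted p = 0.101), Gja4 at 0.87 (edgeR adjusted p = 0.261), and Thbd at 1.37 (edgeR adjusted p = 0.118), none of them called. Over the 9 fits that each left out 1 RV library, Plat was called at 8 h in 9, S1pr1 and Nppc in 6 (Nppc at 2.76 to 4.67), and Gja4 and Thbd in 3. Plat was called in all 4 comparisons with 0 h and S1pr1 also in LV at 8 h, but the Plat call at 4 h was lost in 4 of 9 fits in LV (without replicate 2 or 3 at 0 h or 1 or 3 at 4 h; edgeR adjusted p up to 0.27) and in 1 of 9 in RV (without replicate 2 at 0 h; 0.109), and that of S1pr1 in LV without replicate 2 at 0 h (0.109). Tek was lower in RV at 4 h (-0.72 ± 0.23; edgeR adjusted p = 0.098), a call that held in 2 of those 9 fits (edgeR adjusted p up to 0.346). In LV without replicate 3 at 8 h, Plat was at 1.29 and S1pr1 at 0.79, both called. Nos3, endothelial nitric oxide synthase, was not called (0.60 ± 0.44 in RV at 8 h).

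Genes that Klf2 represses in endothelium numbered 5 here, and in each ventricle 2 were called higher at 4 h and 2 at 8 h, with 0 lower by edgeR or DESeq2. They were the adhesion molecules Vcam1 and Sele in each comparison. Of all genes tested, 2.4% at 4 h and 5.46% at 8 h were called higher in LV, and 6.17% and 13.0% in RV. When 1 library was left out at a time, the Vcam1 call at 4 h held in 3 of 9 fits in LV and in 7 of 9 in RV (edgeR adjusted p up to 0.307 and 0.151). The Sele call at 4 h held in 4 of 9 and in 8 of 9 (edgeR adjusted p up to 0.292 and 0.109), lost in RV without replicate 2 at 0 h. At 8 h both held in 7 of 9 in LV, Vcam1 lost without replicate 2 or 3 at 0 h (edgeR adjusted p up to 0.165) and Sele without replicate 2 at 0 h or replicate 3 at 8 h (up to 0.195), and both in 9 of 9 in RV, with log2 fold changes of 2.13 to 3.33 for Vcam1 and 3.14 to 4.95 for Sele. The median log2 fold change of the list in RV at 8 h was 0.61, against -0.07 for all genes. In RV at 8 h the log2 fold changes were 2.74 ± 0.54 for Vcam1 and 3.59 ± 0.67 for Sele (edgeR adjusted p = 0.0125 and 0.01), and without replicate 3 they were 2.13 and 3.55 (edgeR adjusted p = 0.0232 and 0.0207). In LV without replicate 3 at 8 h, Vcam1 was called (1.89; edgeR adjusted p = 0.0713) and Sele was not (2.51; edgeR adjusted p = 0.116).

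Of 4 TGF-beta-induced genes, 4 were called higher in RV at 4 h and 4 at 8 h, where 6.17% and 13.0% of all genes tested were. In LV 1 was called at each time, Smad7 and then Skil (2.4% and 5.46% of all genes called higher). DESeq2 called 4 and 2 in LV, where it called 693 and 1161 of 22769 genes higher. Ccn2 had a log2 fold change of 1.88 ± 0.26 at 4 h and 0.94 ± 0.25 at 8 h in RV, and Smad7 one of 1.79 ± 0.21 and 1.21 ± 0.21, while the values were 1.12 ± 0.26 and 1.68 ± 0.26 for Skil and 1.57 ± 0.30 and 2.08 ± 0.30 for Tgif1. None of these was called between 8 h and 4 h by edgeR. Without replicate 3, all 4 were called in RV at 8 h (Ccn2 1.12, Smad7 1.27, Skil 1.499, and Tgif1 1.95), with a median of 1.38. Of 14828 genes tested in that fit, 1329 were called higher. In LV at 8 h Skil was not called without replicate 3 (0.81, edgeR adjusted p = 0.147). Leaving out 1 library at a time, Smad7 in LV at 4 h was called in 4 of 9 fits (edgeR adjusted p up to 0.292) and Skil in LV at 8 h in 6 of 9 (up to 0.218). In RV, Skil at 4 h and Ccn2 at 8 h were called in 6 of 9 (up to 0.157 and 0.147), both lost without replicate 2 or 3 at 0 h or replicate 1 of the stored group, and Tgif1 at 4 h in 8 of 9, lost without replicate 2 at 0 h (0.109). The 7 KLF15 targets of muscle included 1 gene called in RV at 8 h and 0 elsewhere (unadjusted p under 0.05 for 1 and 5 in LV and 0 in RV at 4 h; DESeq2 called the same numbers). It was the potassium channel subunit Kcnip2 (155.5, 186, and 158 CPM in RV at 0 h and 110.6, 117, and 49.4 CPM at 8 h; log2 fold change -0.85 ± 0.28; edgeR adjusted p = 0.0811). Replicate 3 was the low library, and without it the value was -0.54, under the fold threshold and not called (edgeR adjusted p = 0.0887). The call held in 2 of the 9 fits that each left out 1 RV library. The median of that list in RV at 8 h was -0.54, and -0.30 without replicate 3.

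Of 6 glucocorticoid-induced genes, 1 was called higher in LV at 4 h and 1 at 8 h, and 2 in RV at 4 h and 3 at 8 h, with 0 lower by edgeR or DESeq2. Fkbp5 was called in each comparison, though the LV call at 4 h held in 1 of the 9 fits that each left out 1 LV library (1.00 to 1.71; edgeR adjusted p up to 0.331) and the RV call at 4 h in 6 of 9, lost without replicate 2 or 3 at 0 h or replicate 3 at 4 h (edgeR adjusted p up to 0.236). Its log2 fold change was at 4 h 1.49 ± 0.36 in LV and 1.41 ± 0.38 in RV, and at 8 h 1.60 ± 0.36 in LV and 1.52 ± 0.38 in RV. Without replicate 3 at 8 h it was at 1.22 in LV, not called (edgeR adjusted p = 0.118), and at 1.21 in RV, called (edgeR adjusted p = 0.0821). Of the 9 fits at 8 h the call held in 6 in LV and in 7 in RV, lost in each ventricle also without replicate 2 or 3 at 0 h (edgeR adjusted p up to 0.191 and 0.118). Cdkn1a was called in RV at both times (5.84-fold and 7.99-fold) and had 3.55-fold and 3.71-fold in LV, not called (edgeR adjusted p = 0.176 and 0.108). On the log2 scale the RV values of Cdkn1a were 2.55 and 2.998, and 2.18 to 3.60 and 2.59 to 4.05 when 1 library was left out. The lowest value at 8 h was that without replicate 3 (edgeR adjusted p = 0.0323). The call at 8 h held in 9 of 9 fits and that at 4 h in 6, lost without replicate 2 or 3 at 0 h or replicate 1 at 4 h (edgeR adjusted p up to 0.161). In LV at 8 h it was at 1.385 without replicate 3. Sgk1 was called in RV at 8 h (1.39 ± 0.36, and 1.03 without replicate 3), a call lost without replicate 2 or 3 at 0 h (edgeR adjusted p up to 0.12), and Tsc22d3 was not called in RV at 8 h (-0.40 ± 0.12).

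Markers of cell types were counted in the same libraries. Of 6 endothelial markers, edgeR called 0 in the comparisons with 0 h; an unadjusted p under 0.05 was found for 0 and 1 in LV and 2 and 1 in RV at 4 h and 8 h, and DESeq2 called 1 in RV at 4 h and 0 otherwise. They summed to 672, 572, and 882 CPM in RV at 0 h and to 976, 632, and 898 CPM at 8 h, Cdh5 being the most abundant. In RV the cardiomyocyte markers summed to 62000, 57300, and 53400 CPM at 0 h and 43700, 51100, and 23500 CPM at 8 h, lowest in replicate 3. Their sums in LV were 62100, 54700, and 50900 CPM at 0 h and 42400, 44300, and 35800 CPM at 8 h. None of these 6 was called in RV by edgeR or DESeq2. Myh6 was called lower in LV at 8 h (-0.63 ± 0.14; edgeR adjusted p = 0.041) and had -0.65 ± 0.30 in RV, not called. The LV call was lost with transcript length offsets, where the sign turned (0.16; edgeR adjusted p = 0.65), and without LV replicate 1 or 2 at 0 h or replicate 3 at 8 h (-0.55 without the last; edgeR adjusted p = 0.106). The 5 neutrophil markers, with Csf3r the most abundant, summed to 2.10, 0.982, and 2.51 CPM in RV at 0 h and to 16.2, 12.0, and 16.6 CPM at 8 h, and Ly6g was at 0 in all libraries but 1, LV replicate 1 at 8 h. Csf3r was called higher in all 4 comparisons with 0 h (2.52 in LV and 2.88 in RV at 8 h, each called in 9 of 9 fits that left out a library; 2.41 in LV and 2.81 in RV without replicate 3). At 4 h the Csf3r call held in 9 of 9 in RV and in 6 of 9 in LV, lost without replicate 2 or 3 at 0 h or replicate 3 at 4 h (edgeR adjusted p up to 0.189). S100a8 and S100a9 were also called higher in LV at 8 h, at 3.08, 0.712, and 0.813 CPM and at 6.38, 0.949, and 1.96 CPM, from under 0.1 CPM at 0 h, and in RV they did not pass the filter on low counts. Both were also called without replicate 3 (edgeR adjusted p = 0.0182 and 0.0349), and the S100a9 call was lost without LV replicate 2 at 0 h (edgeR adjusted p = 0.108). Of 5 macrophage markers, Adgre1 (0.90 ± 0.22) and Mrc1, the most abundant (1.05 ± 0.24), were called higher in RV at 8 h, where the list summed to 244, 169, and 125 CPM against 111, 113, and 168 at 0 h. Without replicate 3 they were at 1.05 and 1.31 and again called, while the Adgre1 call was lost without RV replicate 2 at 0 h (edgeR adjusted p = 0.118). The 6 smooth muscle and pericyte markers, with Rgs5 the most abundant, summed to 625, 698, and 848 CPM in RV at 0 h and 931, 797, and 1230 at 8 h, and 1, Kcnj8, was called lower (-1.48 ± 0.40), but not without replicate 3 (-1.20; edgeR adjusted p = 0.115) or without replicate 2 or 3 at 0 h (up to 0.127). Kcnj8 was also called lower in RV at 4 h (-1.32), in 2 of the 9 fits that left out a library (edgeR adjusted p up to 0.269). The 5 fibroblast markers, with Dcn the most abundant, summed to 763, 757, and 799 CPM in RV at 0 h and to 1450, 793, and 882 CPM at 8 h, highest in replicate 1. In LV their sums were 605, 667, and 681 CPM at 0 h and 1020, 712, and 765 CPM at 8 h. The smooth muscle and pericyte sums in LV were 631, 702, and 733 CPM and then 890, 771, and 887 CPM. Endothelial and macrophage sums in LV overlapped between 0 h and 8 h. The 5 atrial markers, with Nppa the most abundant, varied widely in RV, with 376, 277, and 111 CPM at 0 h, 53.5, 187, and 275 CPM at 4 h, and 805, 119, and 221 CPM at 8 h. In RV at 8 h edgeR called 0 of the fibroblast and 0 of the atrial markers, 0 had an unadjusted p under 0.05, and DESeq2 called 0. The erythroid markers, led by Hbb-bs, summed to at most 6.21 CPM at 0 h. At 4 h they were high in replicate 1 (84.8 CPM in LV and 106 in RV), and at 8 h the sums were 196, 11.9, and 31.1 CPM in LV and 52.3, 3.95, and 30.1 CPM in RV. Hbb-bs and Hbb-bt, the beta-globin genes, were called higher in LV at 8 h (3.90 ± 1.17 and 3.80 ± 1.07; edgeR adjusted p = 0.0997 and 0.0851). Each call held in 3 of the 9 fits that left out an LV library, with log2 fold changes of 2.06 to 4.41 and 1.93 to 4.33 and edgeR adjusted p up to 0.298 and 0.274, and without replicate 3 at 8 h neither was called (4.26 and 4.15; edgeR adjusted p = 0.143 and 0.119). Mitochondrial genes took from 22.7% to 32.6% of the counts at 0 h and from 32.0% to 34.4% at 8 h. Whether these values have a part in the changes of the members was not tested.

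Across the 18 libraries, the genes most like each member in log2 CPM, among 9968 with a mean of at least 5 CPM, were named as a description without a test. Klf4 was most like Fosb (Pearson r = 0.939, n = 18), Klf6 (0.928), and Fam98b (0.928). Klf6 was most like Tra2b, Chka, and Pcf11 (0.964 each), and Klf7 most like Arf4 (0.987), Pola2 (0.983), and H3f3b (0.982). Klf2 was most like Klf4 (0.892), Smad1 (0.888), and Ets2 (0.88). Klf15 was most like Lrrc14b (0.937), Gpsm1 (0.924), and Zfp251 (0.918). For the others the leading genes were Chd4, Ier3, and Calr for Klf10 (0.876 to 0.858), Gm13340, Vmp1, and Zfp719 for Klf11 (0.823 to 0.818), Zfp579, Fam217b, and Rnf145 for Klf13 (0.921 to 0.856), Efna5, Plxdc2, and Fam222b for Klf9 (0.851 to 0.813), and Mapk7, Tcaf1, and Uap1l1 for Klf3 (0.804 to 0.768). Among members, r was 0.84 or more for each pair of Klf2, Klf4, Klf6, and Klf7, and -0.86 for Klf15 with Klf6. Libraries of one ventricle and time share their storage, so that the points are not independent.

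Promoter sequences of RefSeq (GRCm38.p6) were matched for 9 of the 10 members, and the 250 bases before each start in that set were searched on both strands. These starts can differ from those of the gene coordinates given above. The windows of Klf2 (to 72319061) and Klf6 (to 5861488) end inside the genes as placed there (from 72319033 and 5861482). The CACCC match of Klf2 lies in that last part. The windows of Klf3 (to 64803520) and Klf11 (to 24651370) also end inside their genes (from 64803388 and 24651274). The Klf7 window (64121390-64121639, minus strand) lies wholly inside its gene (64029447-64122282). All of them are kept in the counts that follow. The MEF2 box was in 1 of the 9 (Klf2) and in 0.508% of 32851 promoters of the same length. CACGTG was in 4 of 9 (Klf4, Klf6, Klf11, and Klf15) against 6.02%, CACCC in 6 of 9 against 52.0%, and the GC box GGGCGG in 8 of 9 against 32.7%. TGACG was in 5 of 9 (17.8%), TGANTCA in 1 of 9 (6.75%), and the glucocorticoid receptor half-site pair ACANNNTGT (5.84%), TATAAA (12.4%), and the CArG box (1.47%) in 0 of 9. The median share of G and C in all promoters was 52.4%, and it was 71.2% for Klf2, 74.0% for Klf4, 64.8% for Klf6, and 72.0% for Klf15. A match describes the letters and not a bound site. The windows of 3 members that rose together in RV and of Klf15, which was lower there, are shown 5′ to 3′ with the MEF2 box, CACGTG, and CACCC (or its reverse complement) in capitals: Klf2 (chr8:72318812-72319061, plus strand), Klf4 (chr4:55532476-55532725, minus strand), Klf6 (chr13:5861239-5861488, plus strand), and Klf15 (chr6:90462326-90462575, plus strand).
Klf2: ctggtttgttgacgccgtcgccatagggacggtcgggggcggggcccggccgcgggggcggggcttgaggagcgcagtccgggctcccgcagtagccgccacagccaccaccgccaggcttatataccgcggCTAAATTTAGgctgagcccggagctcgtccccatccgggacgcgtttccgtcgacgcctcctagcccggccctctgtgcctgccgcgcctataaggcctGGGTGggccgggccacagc
Klf4: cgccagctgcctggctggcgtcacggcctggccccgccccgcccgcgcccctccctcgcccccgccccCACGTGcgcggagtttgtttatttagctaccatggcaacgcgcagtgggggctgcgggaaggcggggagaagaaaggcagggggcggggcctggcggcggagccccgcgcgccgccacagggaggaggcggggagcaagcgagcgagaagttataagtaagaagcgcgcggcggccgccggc
Klf6: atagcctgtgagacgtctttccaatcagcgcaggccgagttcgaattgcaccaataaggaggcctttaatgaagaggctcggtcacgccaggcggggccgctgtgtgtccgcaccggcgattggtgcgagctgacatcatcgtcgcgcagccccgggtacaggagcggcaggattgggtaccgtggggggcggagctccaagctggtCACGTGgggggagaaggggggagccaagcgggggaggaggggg
Klf15: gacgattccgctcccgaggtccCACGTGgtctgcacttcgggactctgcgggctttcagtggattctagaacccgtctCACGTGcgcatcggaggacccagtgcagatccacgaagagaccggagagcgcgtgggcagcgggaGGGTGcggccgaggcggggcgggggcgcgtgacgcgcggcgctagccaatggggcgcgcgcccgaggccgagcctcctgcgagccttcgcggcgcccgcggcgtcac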

How the data were processed

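The authors deposited for each library a table with 1 estimated count (expected count) per transcript, obtained by Kallisto from GRCm38 transcript sequences. The authors deposited TPM in the same table, a within-library scale that was used only for levels. Transcript lengths and effective lengths, also deposited, entered only the length offsets. Of 111462 transcripts, 1259 had no match in GENCODE M21, and the remaining 110203 were summed to genes and rounded. Filtering used filterByExpr and scaling TMM (edgeR 4.0.16, R 4.3.3); DESeq2 1.42.0 was an alternative. Each ventricle's storage comparisons came from its 9 libraries, and comparisons between ventricles from all 18. Deviations of same-numbered libraries correlated above 0.1 in every pair except in LV against 0 h. Members and lists were chosen with earlier results of these data known. A planned list gene is not reported, and the counts leave it out. Named were all members, and from the other lists the genes called or with a role explained. Fits leaving out same-numbered LV and RV libraries together were added after the data had been seen.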

Additional observations from a re-analysis of the deposited data

Results flagged for a closer look

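The change from 0 h to 8 h differed between LV and RV for 5 members, where 5.71% of 15093 genes were called. This was the test of the difference itself (edgeR quasi-likelihood, Benjamini-Hochberg). Each pair of same-numbered LV and RV libraries of a storage time was a block. On the log2 scale, the change in LV minus that in RV was -1.46 for Klf4 (edgeR adjusted p = 0.00455), -1.31 for Klf6 (0.00131), -1.25 for Klf2 (0.0146), and -0.81 for Klf10 (0.0151), and for Klf15 it was 0.74 (0.0593), less negative in LV. Without the block none was called with all libraries in the fit, and Klf6 was called without replicate 3 at 8 h of both ventricles. The first 4 were called in all 9 fits that left out the same-numbered LV and RV libraries of a storage time, with Klf15 called in 4 of 9. Fits without 4 h libraries keep every library of this difference and hardly test it. Klf15 was called in these and without replicate 2 at 8 h.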

How the results depend on the processing

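With adjusted p under 0.05, 1 member was called in RV at 4 h (549 of 14622 genes higher and 252 lower). In RV at 8 h the calls of Klf10 and Klf15 were then lost (1403 and 379 genes). With transcript length offsets 5 members were called in RV at 4 h (903 and 500 genes). DESeq2 and the replicate block each called 4 there (1205 and 756 of 22800 genes, and 1236 and 790 of 14622). DESeq2 called 1 in LV at 8 h (1161 of 22769 genes higher and 335 lower). In RV for 8 h against 4 h it called 1 (29 and 14 of 22800 genes). For LV against RV at 8 h it called 1 (36 and 140 of 24072 genes). Y-linked expression as a covariate gave 1 in LV at 8 h (1050 and 260 of 14564 genes). With the same-numbered LV and RV pairs of a storage time as blocks, 4 members were called for LV against RV at 8 h (8.78% of genes). For the difference in change to 8 h 5 were (5.71%). In LV against 0 h, deviations of same-numbered libraries correlated at 0.037 to 0.25 for 4 h and at -0.016 to 0.103 for 8 h. The block of replicate number called 0 members there. Of 14564 genes it called 562 higher and 100 lower at 4 h, and 1179 and 361 at 8 h. Replicate 3 at 8 h of both ventricles was also left out without the pairs as blocks, chosen after seeing the data. For LV against RV at 8 h, 2 members were then called, where 19 of 15192 genes were higher and 96 lower. For the difference in change 1 was called (0 genes higher and 5 lower). Over fits leaving out 1 library, counts of members in LV ran from 0 to 2 at 4 h and 0 to 1 at 8 h. In RV they ran from 0 to 4 at 4 h and 5 to 7 at 8 h. Of all genes, 14 to 669 were called higher and 1 to 166 lower in LV at 4 h. At 8 h these were 130 to 1422 and 12 to 506. In RV they were 235 to 1219 and 79 to 847 at 4 h, and 1025 to 2626 and 238 to 2019 at 8 h. For LV against RV at 8 h, 0 to 3 members were called, where 0 to 76 genes were higher and 0 to 286 lower. Fits with the pairs as blocks left out the same-numbered LV and RV libraries of a storage time. They gave 4 to 5 members for LV against RV at 8 h (242 to 471 genes higher and 618 to 1096 lower). For the difference in change they gave 4 to 6 (48 to 298 and 497 to 847). Myh6 in LV at 8 h turned from -0.63 to 0.16 with length offsets. The cause was not tested.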
